A study of Mus musculus with 2 samples.

Results

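The let-7 and miR-98 family is a group of microRNA genes whose mature products carry the same seed, the bases that pair with target messenger RNAs. The 10 genes described here, out of 1973 microRNA genes counted in the deposited tables, are Mirlet7a-1, Mirlet7a-2, Mirlet7b, Mirlet7c-1, Mirlet7c-2, Mirlet7d, Mirlet7f-2, Mirlet7g, Mirlet7i and Mir98. They were chosen by name, by matching the Ensembl gene IDs of the tables to symbols. No measured value entered this rule, though earlier results of these data were known. All 10 had a row in both tables. RNA under 30 nucleotides was sequenced from whole liver of mouse embryos (strain B6NCrl, embryonic day 14.5), an organ that also makes blood at this age. The study is 1 group of 2 libraries, biological replicates 1 and 2, with no treatment, mutation or other tissue. Each is described as a single liver, but the sex is labelled as pooled and both carry 1 donor ID, so their independence is unclear and the spread between them may be partly technical.

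A let-7 gene is transcribed as a long primary RNA that folds into a hairpin. Drosha and then Dicer cut it to a short duplex, and 1 strand is loaded into an Argonaute protein, where it lowers the output of messenger RNAs with matching sites. Let-7 is known from worms and mammals as a microRNA of differentiated cells that restrains growth regulators such as Hmga2, Ras and Lin28. Lin28 proteins in turn bind let-7 precursors and block their maturation in stem cells and fetal tissue, and Lin28b is known as a regulator of fetal blood formation.

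Replicate 1 had 2353946 same-strand counts over all microRNA genes and replicate 2 had 3132763. CPM is a gene's same-strand count per 1000000 same-strand counts of its library, and means are given ± SD (n = 2). Multimapping reads, 2175174 of 6395680 reads in replicate 1 and 2668030 of 8068090 in replicate 2, belong to no gene in the tables. The tissue label was checked against defining microRNAs. Mir122, typical of liver cells, stood at 97348 and 110371 CPM in replicates 1 and 2, and Mir451a, typical of red cells, at 38020 and 30243 CPM. Of the muscle markers Mir1a-1, Mir133a-1 and Mir133a-2 had no count in either library, and the list summed to 31.0 CPM in replicate 1 and 14.0 CPM in replicate 2, all from Mir206. Whether the genes at 0 share a mature product with another gene was not examined. Reads that match several loci are not counted, so these 0 values do not show that muscle RNA was absent.

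The mature sequences decide how the counts can be read, so they are shown first. They are the 5p products, from the 5′ arm of the hairpin, as listed by RefSeq for GRCm38.p6, with the seed (bases 2 to 8) in capitals. RefSeq hairpins were found for all 10 genes. The let-7a-5p product of Mirlet7a-2 was located by its sequence, since the table lists the other arm alone for that gene.
let-7g-5p: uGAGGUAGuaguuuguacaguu
let-7i-5p: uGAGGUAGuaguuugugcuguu
let-7d-5p: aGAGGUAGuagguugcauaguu
miR-98-5p: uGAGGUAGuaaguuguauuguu
let-7b-5p: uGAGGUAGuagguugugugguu
let-7a-5p: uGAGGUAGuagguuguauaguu
let-7c-5p: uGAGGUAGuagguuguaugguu
let-7f-5p: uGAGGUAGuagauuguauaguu
let-7e-5p: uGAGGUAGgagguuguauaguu

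The 10 genes made 8 distinct mature sequences of 22 bases, all with the seed GAGGUAG. The ninth sequence shown, let-7e-5p, belongs to Mirlet7e, which is described with its cluster. Across the 9 sequences 14 of 22 positions held the same base. Counted from base 1 at the 5′ end and written with the let-7a-5p base first, let-7c-5p differed from let-7a-5p by A19G, let-7f-5p by G12A and let-7e-5p by U9G. The product of Mirlet7b differed by A17G and A19G, that of Mirlet7g by G12U and U18C, that of Mir98 by G11A and A19U, and that of Mirlet7d by U1A and U16C. The product of Mirlet7i was the most distant, with the 4 differences G12U, A17G, U18C and A19U. Of the 1738 mature entries in the sequence table, 13 carried this seed. Besides let-7 and miR-98 entries these included miR-1961 and let-7k, whose genes Mir1961 and Mir7k had no same-strand count in either library. With 3 counts as the most that a count of 0 allows, their placed reads are bounded at 1.27 CPM (replicate 1) and 0.958 CPM (replicate 2). Whether reads of these genes match several loci was not examined. Mir7j, whose let-7j product has another seed and which is no member here, had 34.4 and 30.6 CPM.

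The products of Mirlet7g, Mirlet7i, Mirlet7d, Mir98 and Mirlet7b each occurred in 1 hairpin and are called unique. The products let-7a-5p, let-7c-5p and let-7f-5p each occurred in 2 hairpins. Their genes are Mirlet7a-1 and Mirlet7a-2, Mirlet7c-1 and Mirlet7c-2, and Mirlet7f-2 with its partner Mirlet7f-1. Among 2202 microRNA transcripts of GENCODE M21, no window of 22 bases in the 5 hairpins with a unique product was found at another locus. In the 5 others between 1 and 7 windows were found elsewhere, which was 1.61% of the windows of Mirlet7f-2, 2.67% of those of Mirlet7a-2, 2.74% of those of Mirlet7c-1, 9.46% of those of Mirlet7c-2 and 9.59% of those of Mirlet7a-1. Mirlet7a-1 and Mirlet7c-2 also share their 3p product, the one cut from the other arm. The 3p products of Mirlet7f-2, Mirlet7a-2 and Mirlet7c-1 each occurred in 1 hairpin, so reads of that arm can be placed. Counts are by gene and do not separate the arms, so CPM is not the level of the 5p product alone. The rest of the genome was not searched. A read of the 5p arm that ends with the shared product cannot be placed, while one that runs past the first differing base can be. The next 6 bases of each hairpin are shown after the product, with capitals where the partners differ.
Mirlet7a-1: ugagguaguagguuguauaguuuUAGgG
Mirlet7a-2: ugagguaguagguuguauaguuuAGAgU
Mirlet7c-1: ugagguaguagguuguaugguuuAgAgU
Mirlet7c-2: ugagguaguagguuguaugguuuUgGgC
Mirlet7f-1: ugagguaguagauuguauaguuGuGggg
Mirlet7f-2: ugagguaguagauuguauaguuUuAggg

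The let-7f partners differed at the first base after the product, while the let-7a and let-7c partners shared 1 more base, so that their identical stretch was 23 bases against 22 for let-7f. None of the pairs shared a base just before the product. Reads that match both partners are therefore left out of the counts of these 5 genes. Whether each placed read came from that locus was not tested, so the counts set no strict limit on what each locus makes.

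Of all same-strand counts the family took 6.83% in replicate 1 (6.80 to 6.87) and 6.97% in replicate 2 (6.94 to 6.99), with exact Clopper-Pearson limits at the 95% level in brackets. All 10 members reached 10 counts in both libraries, and 8 reached 100. Mirlet7g and Mirlet7i, both with a unique product, together held 85.9% and 86.2% of the family's counts in replicates 1 and 2. The 5 genes with a unique product held 98.2% in replicate 1 (98.1 to 98.3) and 98.3% in replicate 2 (98.2 to 98.3). Reads that match both loci of a shared product are not counted. The shares within the family therefore describe counted reads, and may overstate the genes with a unique product. These intervals were computed within each library, so they cover counting error only and no variation between livers. Reads copied by PCR are not independent molecules, so the intervals may be too narrow even for that error. The median member had 793 CPM, beside a median of 173 CPM over the 332 genes that reached 10 counts in both libraries.

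Mirlet7g was the family's highest gene and held rank 5 of all genes by mean CPM. Its level was 35359 CPM in replicate 1, against 36536 CPM in replicate 2, with a mean of 35948 ± 832 CPM. It lies in an intron of Wdr82, a subunit of histone methyltransferase complexes (GRCm38 chromosome 9, 106178840 to 106178927, plus strand, ENSMUSG00000065440.1). The genes nearest in mean CPM over the 2 libraries were Mir26b above it, by 2668 CPM, and Mir451a below it, by 1816 CPM. The 2 values of Mir451a, 38020 and 30243 CPM, lie on both sides of those of Mirlet7g.

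Mirlet7i had 23323 and 23495 CPM in replicates 1 and 2, a mean of 23409 ± 122 CPM, and held rank 10. Its hairpin lies on the minus strand of chromosome 10 from 122985640 to 122985724, inside an exon of the transcribed pseudogene D630033A02Rik (ENSMUSG00000065406.2). No other family member lies on chromosome 10. The genes nearest in mean CPM were Mir21a above and Mir431 below.

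Mirlet7d, the member with the change at base 1 (U1A), had 4505 and 4598 CPM, a mean of 4552 ± 65.5 CPM. Its neighbours in level, Mir192 at 4555 ± 124 CPM and Mir130b at 4530 ± 93.8 CPM, lay within the spread of the replicates. Mir98, the member with a name of its own, had 3204 and 3216 CPM, a mean of 3210.2 ± 8.21 CPM. Mirlet7b was the lowest gene with a unique product, at 735 CPM in replicate 1, against 608 CPM in replicate 2 (mean 672 ± 90.2 CPM). The levels of the 5 genes with unique products thus ran from 672 to 35948 CPM, and no range over the replicates overlapped another.

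Among the 5 genes that share a product, Mirlet7f-2 was highest with 908 and 922 CPM in replicates 1 and 2, above Mirlet7b in both. Mirlet7a-2 had 144 and 137 CPM and Mirlet7a-1 had 110.0 and 109 CPM. Mirlet7c-1 had 30.2 and 28.4 CPM, and Mirlet7c-2 had 29.7 and 15.0 CPM. In the order of the 10 members, 1 of 9 neighbouring pairs overlapped between replicates, and it was Mirlet7c-1 with Mirlet7c-2. With 2 values a member, an exact permutation test of any pair cannot give a two-sided p below 0.333, so these orders rest on the ranges alone. For the shared products the order also depends on which reads could be placed, which was not tested. CPM was not divided by length because each read stands for 1 short product. With the mean level divided by hairpin length, a check chosen after the data were seen, 0 members changed place.

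**Figure D1:**
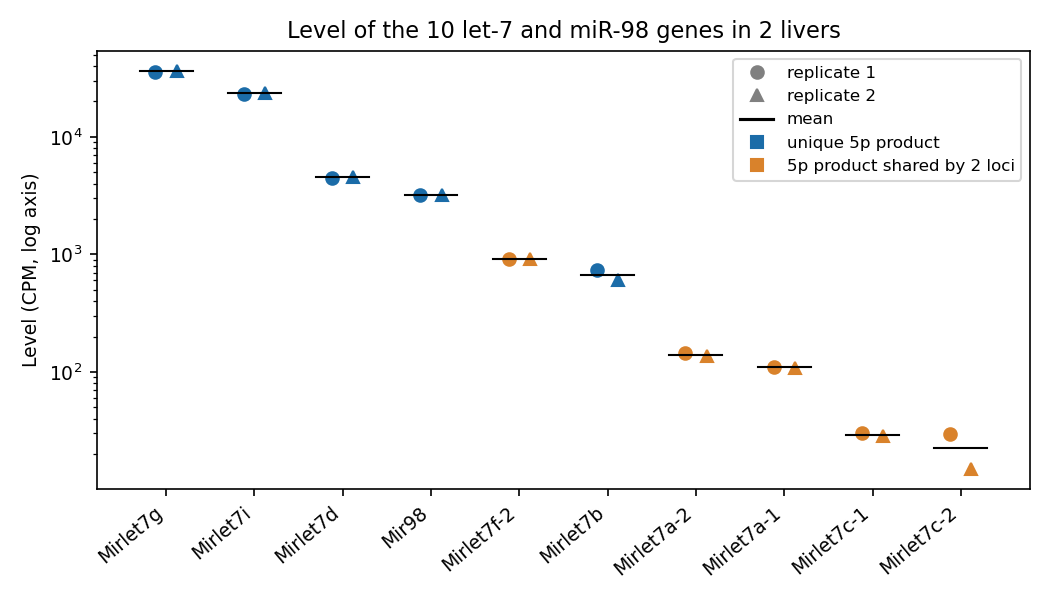
Level of each family gene in CPM on a log axis, with replicate 1 as circles, replicate 2 as triangles and a line at their mean, coloured by whether the mature 5p product occurs in 1 or 2 hairpins. The levels run from 35948 CPM for Mirlet7g to 22.4 CPM for Mirlet7c-2, and the 4 highest genes have a unique product. Reads that match 2 loci are not counted.

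Lin28 proteins are known to bind the stretch between the arms of let-7 hairpins, so this stretch was read from the RefSeq hairpins of 9 members. It is shown for Mirlet7g, Mirlet7i, Mirlet7d and Mirlet7b, which have a unique product. Capitals mark GGAG, the letters contacted by the zinc knuckles of Lin28, and UGAU, a form of the loop motif contacted by its cold shock domain.
Mirlet7g: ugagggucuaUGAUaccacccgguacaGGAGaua
Mirlet7i: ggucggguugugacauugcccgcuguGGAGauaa
Mirlet7d: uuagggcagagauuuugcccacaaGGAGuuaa
Mirlet7b: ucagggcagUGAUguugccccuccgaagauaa

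GGAG was present in 7 of these 9 members and missing from these letters in Mirlet7b and Mirlet7c-2. Of the 644 hairpins read in the same way, 53 held GGAG between the arms (8.23%), the 9 members included, and the members are related by sequence. UGAU was present in Mirlet7g and Mirlet7b, against 6.06% of those hairpins. Other forms of the loop motif were not searched, so members without UGAU may hold one. Only the RNA strand was searched, and the 2 motifs cannot overlap. The stretch was 23 to 34 bases long in these members, against a median of 16 bases over all those hairpins. Those with GGAG had mean levels from 29.3 to 35948 CPM, and those without it had 672 and 22.4 CPM, so the levels of the 2 kinds overlapped. A match is a description of the letters and not of binding.

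Members that lie close together were compared within their clusters. On chromosome X, Mirlet7f-2 (151912346 to 151912428) and Mir98 (151913214 to 151913321) lie 785 bases apart in an intron of Huwe1, which encodes a ubiquitin ligase. Mir98 had 3.51 times the mean CPM of Mirlet7f-2, with SDs of 8.21 CPM for Mir98 and 9.40 CPM for Mirlet7f-2. The product of Mirlet7f-2 is shared and its count leaves out reads that match both loci. This fold therefore covers placed reads only, and the difference in output may be of another size. On chromosome 15, Mirlet7c-2 (85706603 to 85706697) and Mirlet7b (85707319 to 85707403) lie 621 bases apart in an exon of the noncoding transcript Lncppara. By counted reads they were the lowest gene of each kind, with a shared and with a unique product.

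On chromosome 13, Mirlet7a-1 (48538179 to 48538272), Mirlet7f-1 and Mirlet7d (48536012 to 48536114) lie on the minus strand in an exon of the lincRNA 6720427I07Rik. Mirlet7d had 4552 ± 65.5 CPM and Mirlet7a-1, whose product is shared, had 109.6 ± 0.608 CPM. The count of Mirlet7a-1 leaves out reads that match several loci. No row was found under the symbol Mirlet7f-1, so it was not analysed here by an ID of its own. The annotated gene Gm24111 covers it on the other strand (48537825 to 48537921), with a single same-strand count per library. On the opposite strand, that of Mirlet7f-1, there were 146 counts in replicate 1 and 239 in replicate 2. Scaled to the same-strand totals like CPM, these were 62.0 in replicate 1 and 76.3 in replicate 2, lower than the values of Mirlet7f-2, which makes the same product. A read of the mature let-7f sequence alone matches both loci.

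On chromosome 17, Mirlet7e lies between Mir99b and Mir125a in an intron of Spaca6, 94 bases from Mir99b and 367 bases from Mir125a. Mirlet7e too had no row under its symbol and was not analysed here by an ID of its own. The gene Gm25927 covers it on the other strand (17830343 to 17830459), with 0 same-strand counts and with 3767 and 5532 opposite-strand counts in replicates 1 and 2. Scaled in the same way, these were 1600.3 and 1766. The let-7e-5p product is unique, so this value can be set beside the unique members, where it falls between Mir98 and Mirlet7b. Mir99b had 6233 and 6234 CPM and Mir125a had 918 and 961 CPM. With both opposite-strand loci added, a choice made after the data were seen, the family's mean share was 7.06% of counts in place of 6.90%.

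Mirlet7a-2 and Mirlet7c-1 belong to clusters with miR-99, miR-100 and miR-125 genes, which are of other seed families but often transcribed with let-7. On chromosome 9, Mirlet7a-2 (41536716 to 41536811) lies 5211 bases from Mir100 and 45114 bases from Mir125b-1, in introns of 3110039I08Rik and Gm49317. Mir100 had 1816 and 1076 CPM, well above Mirlet7a-2, and Mir125b-1 had 93.5 and 84.0 CPM. On chromosome 16, Mirlet7c-1 (77599657 to 77599750) lies 656 bases from Mir99a and 46522 bases from Mir125b-2 in an intron of Mir99ahg. Mir99a had 18119 and 14326 CPM and Mir125b-2 had 215 and 160 CPM, against 30.2 and 28.4 CPM of Mirlet7c-1. The let-7 genes of these clusters share their products, and so do the Mir125b genes, whereas the products of Mir99a, Mir99b and Mir100 are unique.

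**Figure D2:**
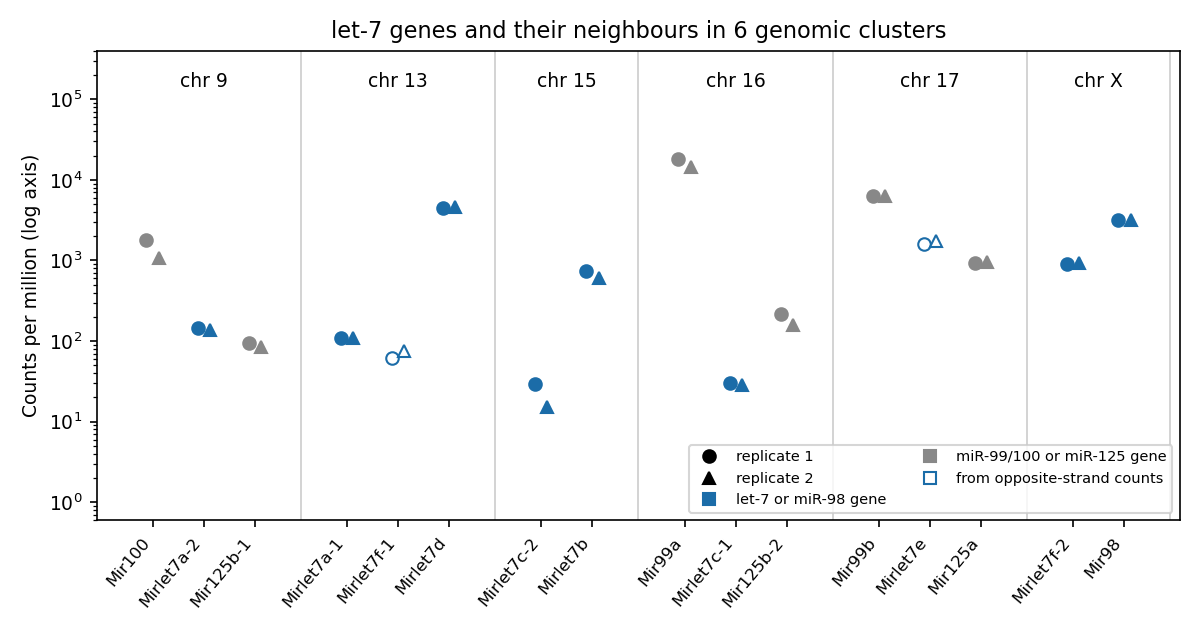
CPM on a log axis for the genes of the 6 clusters that hold a let-7 gene, in the order of the genes in each cluster, with replicate 1 as circles and replicate 2 as triangles. Open symbols are opposite-strand counts at Gm24111 and Gm25927, where Mirlet7f-1 (62.0 and 76.3) and Mirlet7e (1600.3 and 1766) lie.

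The miR-15/16, miR-30 and miR-26 families, which also hold a pair of genes with a shared product, were set beside let-7. The let-7 and miR-98 family summed to 69007 ± 930 CPM over 10 genes, the miR-15/16 family to 50217 ± 1375 CPM over 6 genes, the miR-30 family to 40018 ± 2660 CPM over 6 genes and the miR-26 family to 38688 ± 485 CPM over 3 genes. Mir497, listed with the miR-15/16 family, had no row under its symbol and is not in that sum. The let-7 sum lay above the others in both libraries. With 2 libraries of 1 group this is a description. In each of these families, reads that match both loci of a shared product are not counted. The sums, their order and the shares of the leading genes therefore cover counted reads alone. The leading gene held 52.1% of the let-7 sum, 38.8% of the miR-15/16 sum (Mir322), 55.3% of the miR-30 sum (Mir30e) and 99.8% of the miR-26 sum (Mir26b). The 5 let-7 genes with shared products summed to 1217 ± 8.17 CPM. The pair Mir16-1 and Mir16-2 had 8742 ± 170.03 CPM, the pair Mir30c-1 and Mir30c-2 had 209.8 ± 27.0 CPM, and the pair Mir26a-1 and Mir26a-2 had 71.9 ± 9.53 CPM. A shared product thus went with sums from 71.9 to 8742 CPM.

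The 2 livers were then compared gene by gene. Mirlet7b and Mirlet7c-2, the neighbours on chromosome 15, were higher in replicate 1, Mirlet7g was slightly lower there, and the other 7 members did not pass the test. Each of the 332 genes was tested by how its counts split between the libraries against the split of the totals (exact binomial test, two-sided, Benjamini-Hochberg adjustment over all 332). Only counting error enters, so the test compares these libraries and not conditions. By this test 3 of 10 members differed at an adjusted p under 0.05, beside 41.9% of all genes tested. For higher in replicate 1 the members' count was 2, beside 18.4% of all genes, and for higher in replicate 2 it was 1, beside 23.5%. In this setting the share of members that differed was below that of all genes. It was above it at lower count minimums, where 26% of all genes differed with at least 1 count and 19.9% with no minimum, and with Mir122 left out of the totals, where 5 of 10 members differed, beside 44.3% of all genes. The comparison with all genes therefore has no fixed direction.

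Mirlet7c-2 rested on 70 counts in replicate 1, against 47 in replicate 2, which are 29.7 and 15.0 CPM. The ratio of replicate 1 over replicate 2 was 1.98 (1.35 to 2.93, a 95% interval like those that follow, adjusted p = 0.000899 by the exact binomial test). Mirlet7b had 735 and 608 CPM, a 1.21-fold higher level in replicate 1 (1.13 to 1.29, adjusted p = 6.63e-08 by the exact test). Mirlet7g had 35359 and 36536 CPM, and its ratio of replicate 1 over replicate 2 was 0.968 (0.959 to 0.976, adjusted p = 4.93e-12 by the exact test). At 83234 and 114459 counts a difference of this size was detectable for Mirlet7g, whereas the intervals of the 2 let-7c genes are far wider than it.

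The 7 members that did not pass had ratios from 0.980 to 1.06, and their intervals together reached from 0.766 for Mirlet7c-1 to 1.47 for the same gene. For Mirlet7i the ratio was 0.993 (0.982 to 1.004), for Mir98 0.996 (0.967 to 1.03) and for Mirlet7d 0.980 (0.955 to 1.005). A p that misses the threshold does not show that the livers had equal levels. The intervals cover counting error under this scaling only. For Mirlet7i other scalings gave ratios of 1.009 by TMM, 1.007 by DESeq2 size factors and 0.978 without Mir122, all outside its interval. For Mirlet7g, which passed under each of them, the ratios were 0.984 by TMM, 0.982 by DESeq2 size factors and 0.954 without Mir122. These too lay outside the interval given for Mirlet7g. The median log2 ratio was 0.0034 over the 10 members and -0.03 over the 332 genes tested. The median absolute log2 ratio was 0.04 over the members and 0.16 over all genes tested. These log2 ratios have 0.5 added to each count. Members with many counts have small errors, and no test of the list was made.

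**Figure D3:**
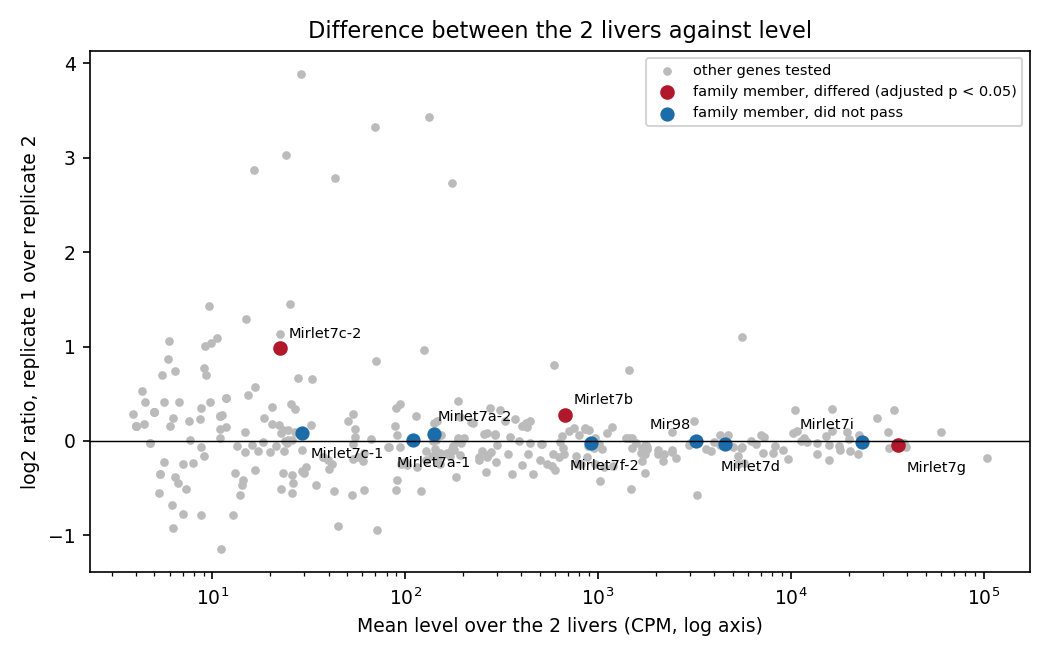
log2 ratio of replicate 1 over replicate 2 against the mean CPM (log axis) for the 332 genes tested, with the family in colour and other genes in grey. Mirlet7c-2 and Mirlet7b lie above 0, Mirlet7g lies just below it at -0.05, and the members that did not pass lie close to it.

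The cluster neighbours were read beside the members. Mir100 was 1.69-fold higher in replicate 1 (1.61 to 1.77), Mir99a 1.26-fold and Mir125b-2 1.34-fold (1.19 to 1.52), and each passed the exact test. Mir125b-1, also in the cluster of Mir100, had a ratio of 1.11 (0.926 to 1.34) and did not pass. Mirlet7a-2, in the cluster of Mir100, had a ratio of 1.05 (0.912 to 1.22), an interval that lies below that of Mir100. Mirlet7c-1, in the cluster of Mir99a, had a ratio of 1.06 with an interval that holds the ratio of Mir99a, so at 71 and 89 counts a difference of that size was not detectable. The ratio of Mir99b was 1.00 (0.979 to 1.02), and its neighbour Mir125a had 0.955 (0.903 to 1.01). The opposite-strand counts at Mirlet7e had a ratio of 0.906 (0.869 to 0.945).

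Some markers of other tissues also differed between the libraries. Of the 7 neural marker genes listed 6 had a row, and Mir137 was the 1 that could be tested. It was higher in replicate 1, at 242 CPM, against 22.3 CPM in replicate 2. Mir9-3 had 16.1 and 0.638 CPM in replicates 1 and 2, Mir124a-1 had 0 and 1 counts, and Mir9-2, Mir124a-2 and Mir124a-3 were at 0 in both. Whether the Mir9 genes or the Mir124a genes share a mature product was not examined. Reads that match several loci are not counted, so these low values do not show that the products were absent. The neural list summed to 258 CPM in replicate 1, against 23.3 CPM in replicate 2. The muscle sum given above was that of Mir206 alone, which was 2.21-fold higher in replicate 1, at 73 and 44 counts in replicates 1 and 2, and passed the exact test. The 3 red cell genes did not move one way. Mir451a (38020 and 30243 CPM) and Mir144 (11594 and 9272 CPM) were higher in replicate 1, while Mir486 (405 and 516 CPM) was higher in replicate 2, and each passed the test. Mir122 of liver cells was higher in replicate 2. The part of these markers in the differences of Mirlet7b, Mirlet7c-2 and Mirlet7g was not tested. In whole tissue, fewer cells of a type and less RNA per cell cannot be told apart.

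**Figure D4:**
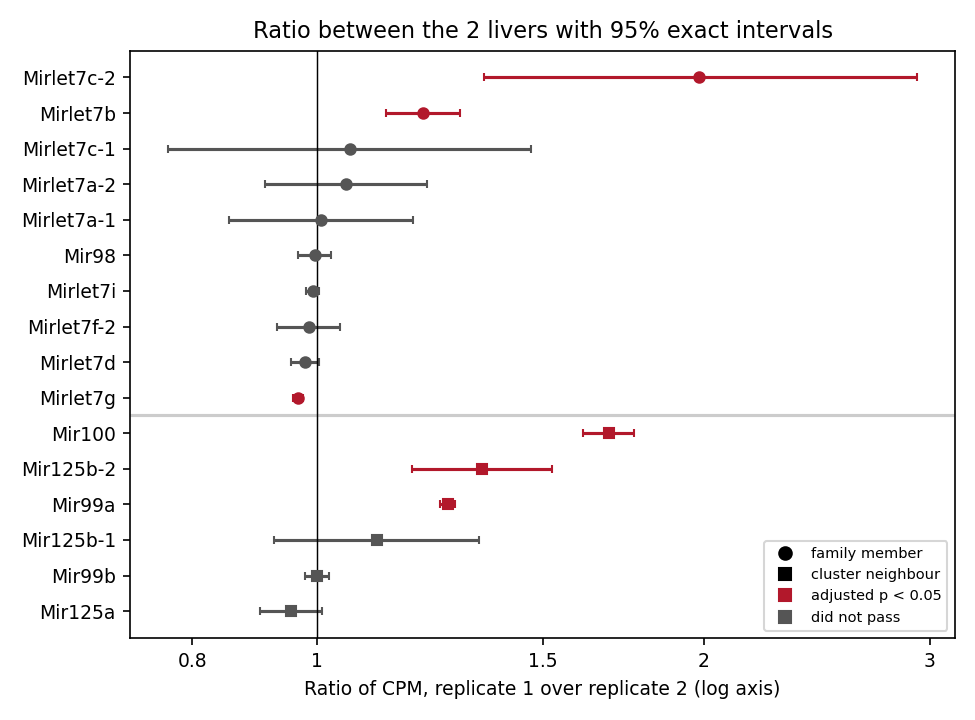
Ratio of CPM in replicate 1 over replicate 2 (log axis) with 95% exact intervals for the 10 family members above the line and 6 cluster neighbours below it, with red for an adjusted p under 0.05. Mirlet7c-2 at 1.98, Mirlet7b at 1.21 and Mirlet7g at 0.968 passed among the members, and Mir100, Mir125b-2 and Mir99a among the neighbours.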

How the data were processed

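The authors deposited 1 table per library of raw, unscaled read counts by microRNA gene, in 3 columns (regardless of strand, gene's strand, opposite strand). Per the labels the assembly is mm10, and notes beside the tables name annotation M4. The sources used here name no aligner or counter. Rows that name no gene, 63.2% of reads in replicate 1 and 61.2% in replicate 2, stayed out of totals and tests. GENCODE M21 (GRCm38, the assembly of mm10) gave symbols for 1894 of 1973 IDs. The members, lists and tests were chosen with earlier results of these data known.

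Same-strand counts were scaled to CPM. Named genes are the members, their cluster neighbours, the genes next in level to the 3 highest members, the leading gene of each comparison family, and tissue markers. The exact binomial test used scipy 1.17.1 and was tried on simulated counts. Alternatives were other count minimums, strands and totals, TMM scaling (edgeR 4.0.16) and DESeq2 1.42.0 size factors. The stretch between the arms of Mir98 is not reported here.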

Additional observations from a re-analysis of the deposited data

Results flagged for a closer look

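Counts on the opposite strand, which do not enter the CPM of the members, were above the 3 counts that a count of 0 allows at a pair of loci. At Gm25927, annotated across from Mirlet7e, there were 3767 opposite-strand counts in replicate 1 and 5532 in replicate 2. At Gm24111, annotated across from Mirlet7f-1, there were 146 and 239. The 10 members themselves had at most 1 opposite-strand count in either library.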

How the results depend on the processing

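The family's mean share of 6.90% was 6.22% with counts regardless of strand, 7.70% with Mir122 left out of the totals, 2.61% of all reads in the tables and 7.06% with the opposite-strand counts at Mirlet7e and Mirlet7f-1 added. It ranged from 6.83% to 6.97% without each replicate. The share of the family's counted reads at loci with a unique product was 98.24%, against 98.18% with the loci of Mirlet7e and Mirlet7f-1 added, and 98.21% to 98.26% without each replicate. The number of members that differed was 3 of 10 at a minimum of 1 count (26% of all genes differed), with no minimum (19.9%), regardless of strand (42.6%), by TMM (39.5%) and by DESeq2 size factors (39.8%), and 2 of the 8 members left at a minimum of 100 counts, beside 60.5% of all genes. It was 5 with Mir122 left out of the totals, where Mirlet7i (0.978) and Mirlet7d (0.966) passed as well, beside 44.3% of all genes. Ratios that changed side of 1 belonged to members that did not pass. They were Mirlet7i (1.009 by TMM, 1.007 by DESeq2 size factors), Mir98 (1.013, 1.011, and 1.004 regardless of strand), Mirlet7f-2 (1.002 and 1.0002) and Mirlet7a-1 (0.993 without Mir122). Counts of all genes that differed were 130 to 147, against 139. At this depth the lowest members, with under 100 counts, cannot show small differences. No paired analysis was possible because there is 1 group. A ratio cannot be given without either replicate.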
